A study of Mus musculus with 4 samples.

Results

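The genes of DNA replication and S phase were followed in tumor, myeloid and lymphoid cells of irradiated and unirradiated Lewis lung carcinoma (LLC) tumors. The set held 39 genes, listed by symbol for their known roles, out of 18605 genes listed in all 4 count tables. All 39 were found in every table. They comprised 10 genes of the replicative helicase, 4 of origin licensing, 6 of the polymerases and primase, 8 of the clamp, clamp loader, single-stranded DNA binding and lagging strand, 5 of nucleotide synthesis, and 6 of chromatin assembly or linked to the clamp PCNA.

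The data were single-cell RNA sequencing of LLC tumors. The tumors were grown under the skin from a mouse lung carcinoma cell line in C57BL/6N mice of 6 to 8 weeks. The NT group was mock treated and was 1 library made from 3 pooled tumors. The RT group was 3 libraries, each from 1 tumor given 24 Gy in 3 fractions of 8 Gy on days 7 to 9 after injection, once tumors averaged 100 mm3. No engineered allele or further agent was labelled in either group, all tumors were taken 72 h after radiation, and the tumor cells come from 1 line. The NT, RT1, RT2 and RT3 tables held 69667759, 78585759, 108699844 and 85660188 unique molecular identifiers (UMIs, each standing for 1 captured transcript) in 10141, 15346, 14994 and 15324 cell barcodes. The libraries shared between 182 and 277 barcodes a pair. The RT2 table stood apart, since it listed 18605 genes against 32285 in the other 3 and no barcode of it exceeded 12.0% mitochondrial UMIs, against 91.5% to 97.0% elsewhere.

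A cell copies its genome once a cycle. Origin recognition and licensing proteins load the MCM helicase in G1, the CDC45 and GINS proteins switch it on, and primase and the DNA polymerases then extend the strands while PCNA, loaded by the RFC complex, holds the polymerase to the template. Ribonucleotide reductase and its partner enzymes supply the nucleotides, and CAF-1 and ASF1 place histones behind the fork. Most of these genes are transcribed by E2F factors as cells enter S phase, so their RNA is a common readout of proliferation in tumors. Radiation damages DNA and can hold cells at checkpoints before or within S phase.

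Promoters were looked at because the genes share this control. RefSeq promoters of 300 bases (250 before and 50 after the start, build GRCm38.p6) matched 34 of the 39 genes. Of these 34, 13 (38.2%) held an E2F motif, TTTCCCGC or TTTGGCGC on either strand, against 1.80% of 27025 genes with a promoter in the table. By promoter, that was 33.3% of 39 against 1.56% of 32851. The letters CCAAT were in 61.8% of the 34 genes and 41.1% of all genes, and TTTGAA in 14.7% and 20.2%. No match of one motif overlapped a match of another in these promoters. The 170 bases before the start are shown for 2 genes that were higher in every RT library in tumor cells (Mcm5, Mcm6) and 2 that were lower (Cdc6, Pola1), with the motif, or its reverse complement, in capitals. Mcm5 is from chr8:75109339-75109508 on the plus strand, Mcm6 from chr1:128359706-128359875 on the minus strand, Cdc6 from chr11:98907981-98908150 on the plus strand, and Pola1 from chrX:93632156-93632325 on the minus strand.
Mcm5: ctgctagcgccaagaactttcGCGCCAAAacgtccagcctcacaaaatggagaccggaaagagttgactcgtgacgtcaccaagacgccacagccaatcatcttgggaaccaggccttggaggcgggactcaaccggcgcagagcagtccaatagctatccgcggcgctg
Mcm6: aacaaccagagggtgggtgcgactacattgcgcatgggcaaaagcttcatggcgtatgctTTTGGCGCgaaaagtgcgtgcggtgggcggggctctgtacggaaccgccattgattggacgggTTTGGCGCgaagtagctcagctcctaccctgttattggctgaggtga
Cdc6: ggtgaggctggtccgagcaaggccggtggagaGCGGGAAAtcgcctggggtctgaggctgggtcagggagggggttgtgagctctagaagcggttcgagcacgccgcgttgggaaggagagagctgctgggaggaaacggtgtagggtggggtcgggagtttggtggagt
Pola1: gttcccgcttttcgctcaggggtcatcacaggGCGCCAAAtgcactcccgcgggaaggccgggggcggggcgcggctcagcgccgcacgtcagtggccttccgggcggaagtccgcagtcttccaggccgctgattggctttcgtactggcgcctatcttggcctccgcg
The motif began 149 bases before the start in Mcm5, 110 and 47 bases before it in Mcm6, and 138 bases before it in both Cdc6 and Pola1. The genes shown were picked from the 13 with an E2F motif, 2 for each direction, so their even split follows from the choice. Of the 13, Mcm5, Mcm6 and Rfc3 were higher in every RT library in tumor cells, Mcm3 and Cdt1 were mixed, and the rest were lower. A match shows neither binding nor use.

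Cells were grouped by marker genes into tumor cells (30386 of 55058 cells kept), monocytes, macrophages, lymphocytes, dendritic cells, neutrophils, fibroblasts and endothelial cells. The 217 genes of the replication and cell cycle lists took no part in the clustering, but cycle genes outside those lists were kept, and some, such as Stmn1 and Aspm, were among the leading genes of tumor cell clusters 1 and 6. A further 9048 cells in 4 clusters stayed unnamed, most of them with few UMIs. Levels are given as CPM, the UMIs of a gene summed over the cells of a class in a library and scaled to a total of 1e6 UMIs in those cells. The tables give no gene lengths, so levels are compared between libraries and classes for the same genes, not from gene to gene.

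The summed level of the 39 genes was highest in lymphocytes and tumor cells in every library. In lymphocytes NT had 4717 CPM, against 3889, 3889 and 4403 CPM for RT1, RT2 and RT3. In tumor cells it was 4006, 3886, 3176 and 3751 CPM in the same order. The ranges of these 2 leading classes overlapped, and in each of them NT lay above the 3 RT libraries. Dendritic cells reached 1635, 2488, 1728 and 2161 CPM, and here NT was the lowest library. In endothelial cells, with too few cells in NT and RT3, RT1 and RT2 gave 1761 and 1563 CPM.

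Macrophages were split by library, with 2286 CPM in NT against 952, 869 and 981 CPM in RT. Monocytes varied little, with 910.1, 965, 888 and 896 CPM. Their range lay inside that of the macrophages of the RT libraries. Fibroblasts and neutrophils had too few NT cells, and over RT1, RT2 and RT3 they gave 945, 535 and 1097 CPM and 1125, 721 and 697 CPM. UMIs of tumor markers were found in every class. Rhox5, one of these markers, was at 1060.4, 1313, 1197 and 1185 CPM in tumor cells and at 28.3, 42.2, 31.5 and 48.8 CPM in macrophages. It was higher in lymphocytes, at 212, 218, 142 and 218 CPM, and in neutrophils of RT1, RT2 and RT3, at 203, 156 and 348 CPM. The part of tumor RNA in the members' levels of the other classes was not tested.

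**Figure D1:**
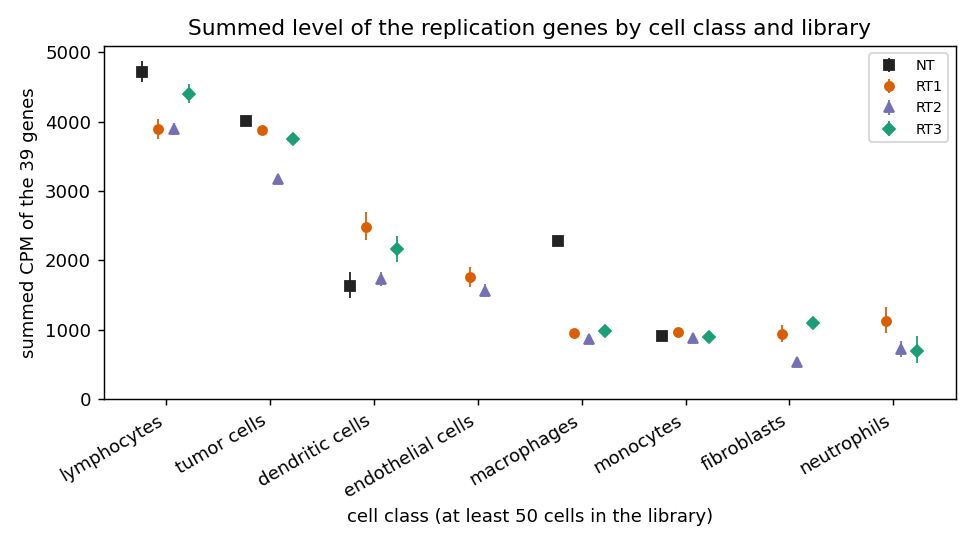
Summed CPM of the 39 replication genes (vertical axis) in each cell class (horizontal axis), with 1 symbol for each library and exact 95% Poisson intervals, which cover counting error only. Macrophages of NT sat at 2286 CPM and those of RT between 869 and 981 CPM, while tumor cells ranged from 3176 to 4006 CPM.

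In tumor cells, 23 of the 39 genes were lower than NT in each of the 3 RT libraries, 6 were higher in each, and 10 were mixed. Every gene passed the low-count filter, Chaf1b only with its NT value counted. Among all 9230 genes that passed it, 36.2% were lower and 26.9% higher in every RT library. The median of the members' mean log2 ratios was -0.26, against -0.06 for all genes. It was -0.11 in RT1, -0.45 in RT2 and -0.14 in RT3, and -0.12 when RT2 was left out. NT had 1 library, so no test of NT against RT was made, and every ratio shares that library. Even a permutation over the 4 libraries could not give a p under 0.25.

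In every RT library 9 members were lower by at least 0.25 on the log2 scale, as were 8.59% of all genes. That count was 5 when each tumor cluster was given the same share in every library, and also 5 among tumor cells with fewer than 3 myeloid marker UMIs. The share over all genes is not given for either setting, so these counts are not compared with it. Levels of the 10 macrophage markers in the tumor cells summed to 48.0, 111, 135 and 89.9 CPM in NT, RT1, RT2 and RT3, and all 10 were higher in every RT library. Selenop was the most abundant of them, and none was at 0. The 7 fibroblast markers summed to 947, 1839, 1436 and 1441 CPM, led by Col3a1, with 6 of them higher in every RT library. The median of the members was -0.23 among tumor cells with fewer than 3 myeloid marker UMIs, and the part of the other marker UMIs in it was not tested.

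**Figure D2:**
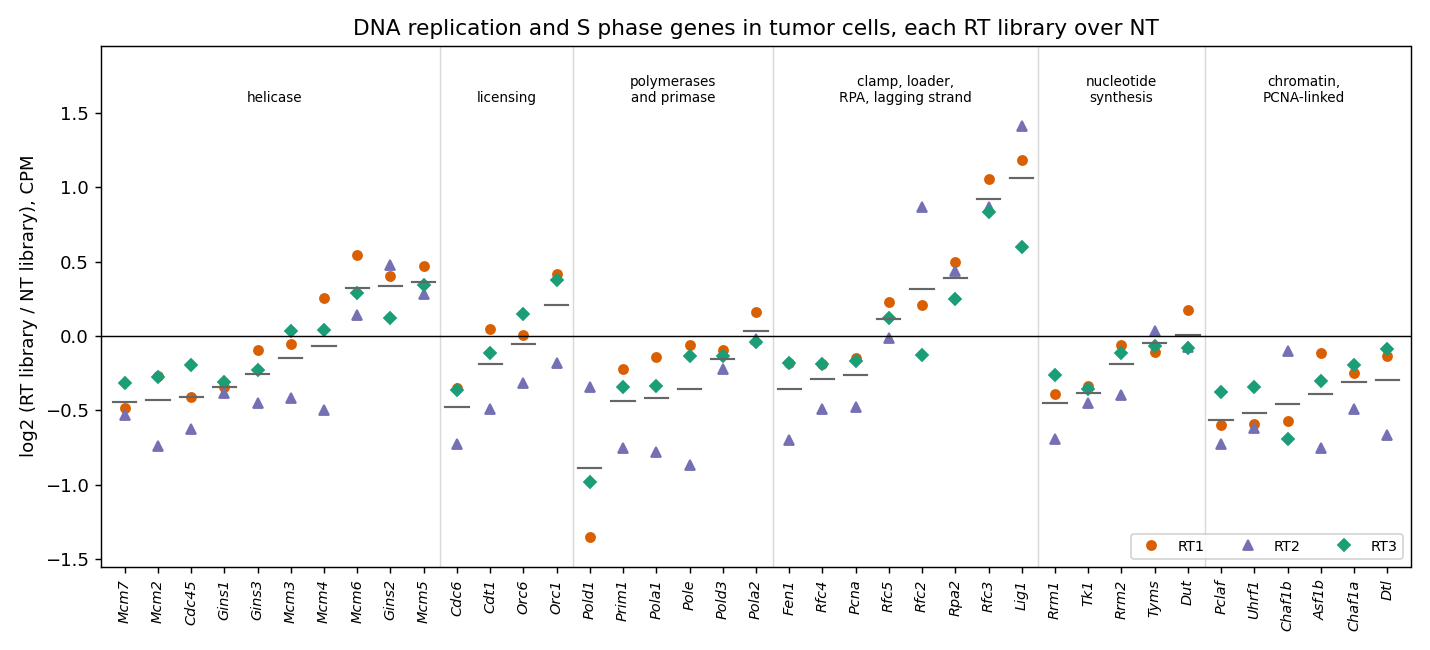
Log2 ratio of CPM in tumor cells of each RT library over NT (vertical axis) for the 39 genes (horizontal axis), grouped by role, with a grey bar at the mean of the 3 RT libraries. The 6 chromatin and PCNA-linked genes lay below 0 in every RT library, while Lig1 and Rfc3 lay highest.

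The chromatin assembly and PCNA-linked genes were the one role in which all 6 members were lower in every RT library. Their median log2 ratio was -0.42. Roles hold 4 to 10 genes each, and among all genes 36.2% were lower and 26.9% higher in every RT library. Of the 6, Chaf1b passed the low-count filter, at a mean of 5.16 CPM, only with its NT value counted. Pclaf, a small PCNA-binding protein of proliferating cells, was at 323 CPM in NT, against 213, 195 and 249 CPM for the RT libraries in order. Its RT values did not reach the NT value, and its mean log2 ratio was -0.57 ± 0.18 (SD, n = 3). Uhrf1, which brings the maintenance DNA methyltransferase to newly copied DNA, was at 142, 93.9, 92.0 and 112 CPM. All RT libraries were again apart from NT, with a mean log2 ratio of -0.52 ± 0.15 (SD, n = 3). Chaf1b, a CAF-1 subunit, was at 6.41, 4.30, 5.97 and 3.96 CPM. RT2 fell within the 95% counting interval of the NT value, 5.80 to 7.07 CPM. Its partner Chaf1a had a mean log2 ratio of -0.31, the histone chaperone gene Asf1b -0.39, and Dtl, which marks Cdt1 for destruction on PCNA, -0.30.

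Of the polymerase and primase genes, 5 of 6 were lower in every RT library and Pola2 was mixed, where 36.2% of all genes were lower. Pold1, the catalytic subunit of polymerase delta, was at 18.1 CPM in NT, against 7.09, 14.3 and 9.16 CPM for the RT libraries in order. This was the lowest mean ratio of the whole set, at -0.89 ± 0.51 (SD, n = 3), and RT2 stood nearest to NT. The primase gene Prim1 (-0.44) and the catalytic subunit genes Pola1 (-0.42) and Pole (-0.35) had their lowest ratio in RT2. Pold3, an accessory subunit of polymerase delta, had a smaller mean log2 ratio of -0.15.

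The nucleotide synthesis genes were lower in every RT library for 3 of 5 members, where 36.2% of all genes were lower. Rrm1, the large subunit of ribonucleotide reductase, was at 131 CPM in NT and 99.5, 80.9 and 109 CPM in RT, a mean log2 ratio of -0.45 ± 0.22 (SD, n = 3). Rrm2, the small subunit, was at 282, 271, 214 and 261 CPM. Both subunits were therefore below NT throughout, though Rrm2 by -0.19 ± 0.18 (SD, n = 3) only. Dut, the dUTPase that keeps uracil out of DNA, was at 196, 222, 186 and 185 CPM, with a mean log2 ratio of 0.0057 ± 0.15 (SD, n = 3). Its libraries thus lay on both sides of NT, as did those of the thymidylate synthase gene Tyms (-0.05). The thymidine kinase gene Tk1 was lower in all 3 RT libraries, at -0.38.

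In the licensing group, Cdc6, which helps load MCM at origins, was lower in every RT library and the other 3 genes were mixed. Such a share was not above the 36.2% of all genes that were lower. Cdc6 was at 40.4 CPM in NT and 31.8, 24.4 and 31.4 CPM in RT, with a mean log2 ratio of -0.48 ± 0.21 (SD, n = 3). Cdt1, its loading partner, was at 167, 172, 119 and 154 CPM, and RT1 was above NT. The origin recognition gene Orc6 was at 164, 165, 132 and 182 CPM, with RT2 alone under NT. Orc1 had log2 ratios of 0.42 and 0.38 in RT1 and RT3 and -0.18 in RT2.

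The helicase genes did not move together. Of the 10, 5 were lower in every RT library (Mcm2, Mcm7, Cdc45, Gins1 and Gins3), 3 were higher (Mcm5, Mcm6 and Gins2) and 2 were mixed (Mcm3 and Mcm4). Over all genes 36.2% were lower and 26.9% higher. Mcm5, a subunit of the MCM ring, was at 109.8 CPM in NT and at 152, 134 and 139 CPM in RT. All 3 RT libraries lay above NT, with a mean log2 ratio of 0.36 ± 0.09 (SD, n = 3). Mcm6, another subunit of the ring, was at 212, 309, 233 and 259 CPM, a mean log2 ratio of 0.33 ± 0.21 (SD, n = 3). Mcm3 was at 219.9 CPM in NT and at 211, 164 and 226 CPM, so that RT3 reached NT. Mcm7 and Mcm2, which belong to the same 6-subunit ring, had mean log2 ratios of -0.44 and -0.43.

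Of the 8 clamp, loader and lagging strand genes, 3 were lower in every RT library, 3 were higher and 2 were mixed. The share of lower genes was thus near the 36.2% over all genes, where 26.9% were higher. Pcna, the sliding clamp itself, was at 563 CPM in NT and 509, 405 and 500.3 CPM in RT, with a mean log2 ratio of -0.26 ± 0.18 (SD, n = 3). Fen1, which trims Okazaki fragments, and Rfc4 of the clamp loader were also lower in every RT library. Lig1, the ligase that seals Okazaki fragments, was at 29.8 CPM in NT and at 67.6, 79.5 and 45.2 CPM in RT. Its mean log2 ratio was 1.06 ± 0.42 (SD, n = 3), or 2.09-fold, the highest of the set. Rfc3, a small subunit of the clamp loader, was at 32.7, 67.9, 59.7 and 58.3 CPM, a mean log2 ratio of 0.92 ± 0.12 (SD, n = 3). Rpa2, of the complex that coats single-stranded DNA, was at 22.1, 31.2, 29.9 and 26.2 CPM, or 0.39 ± 0.13 (SD, n = 3). None of the 3 genes had an RT library at or below NT. Rfc2 differed by library instead, at 37.4, 43.2, 68.2 and 34.3 CPM, with RT2 far above the others. Rfc5, also of the clamp loader, was mixed at 48.5, 56.7, 48.1 and 52.6 CPM (0.11).

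Other replication genes were fixed as a list of 63, with 62 in the tables. Of 58 that passed the filter, 28 were lower and 10 higher in every RT library, with a median log2 ratio of -0.18. Among all 9230 genes that passed, 36.2% were lower and 26.9% higher. By library the median was -0.03 in RT1, -0.31 in RT2 and -0.07 in RT3. The lowest were Pold2, the second subunit of polymerase delta (-0.996), Dctpp1, which clears modified nucleotides (-0.82), and Wdhd1, a polymerase alpha adaptor at the fork (-0.57). The highest were Dtymk, thymidylate kinase (0.43), Gmnn, the inhibitor of Cdt1 (0.56), and Slbp, which binds histone mRNA (0.91). Slbp was at 34.4, 105, 78.0 and 33.3 CPM, so that RT3 lay at the NT level.

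Among 40 passing genes of 45 for E2F factors, cyclins and cell cycle brakes, 24 were lower and 5 higher in every RT library. Their median was -0.25. Over all genes, 36.2% were lower and 26.9% higher. Cdkn1a, the p53 target that encodes the brake p21, was at 19.0 CPM in NT and 41.2, 37.0 and 33.5 CPM in RT, a mean log2 ratio of 0.96 ± 0.15 (SD, n = 3). E2f1, an activator of replication genes, was lower in all 3 RT libraries by a small step, -0.23 ± 0.09 (SD, n = 3). Ccne1, the cyclin that starts S phase, had a mean log2 ratio of -0.20 and was lower in every RT library. Ccne2 was mixed at -0.11. The lowest of the list were E2f7, a repressor of E2F targets (-0.77), Fbxo5, which restrains the anaphase-promoting complex (-0.74), and Cdk4, the G1 kinase (-0.61). Rbl2 (0.64) and E2f6 (0.77), both parts of repressive E2F complexes, were the highest beside Cdkn1a.

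Of 60 G2M genes, 44 were lower and 5 higher in every RT library, with a median of -0.33. The shares over all genes were 36.2% lower and 26.9% higher. RT2 was again the lowest library, at -0.66 against -0.14 in RT1 and -0.15 in RT3. Mki67, the proliferation marker Ki-67, was at 105 CPM in NT and 67.7, 43.9 and 67.0 CPM in RT, a mean log2 ratio of -0.85. Top2a, the topoisomerase that untangles chromosomes, was at 474, 371, 221 and 327 CPM (-0.66), and Cdca2, a phosphatase partner on mitotic chromosomes, was at -0.79. Hjurp (0.43), Gtse1 (0.80) and Dlgap5 (1.29), genes of centromeres and mitosis, were the highest. Histone genes passed the filter for 6 of 11 found, 4 of them lower in every RT library. The 6 mean log2 ratios were -0.83 for H2afx, -0.62 for Hist1h2ae, -0.51 for H1f0, -0.20 for H3f3b, -0.07 for H2afz and -0.06 for H3f3a. Hist1h2ae is a histone made with DNA replication, and the other 5 are variant or replacement histones.

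To compare cells at equal depth, each tumor cell was thinned to 2000 UMIs, leaving out 87, 219, 159 and 230 shallower cells of NT, RT1, RT2 and RT3. At least 5 replication gene UMIs were found in 52.3% of NT tumor cells (95% Clopper-Pearson interval 51.1% to 53.4%). The share was 53.7% in RT1 (52.6% to 54.9%), 36.3% in RT2 (35.1% to 37.4%) and 51.1% in RT3 (50.03% to 52.2%). The RT2 interval lay wholly below that of NT and the other 2 overlapped it. These intervals treat cells as independent and hold no spread between tumors or preparations, so they compare libraries and not conditions. Without it, the mean difference of RT from NT was 0.16 percentage points in place of -5.22, while without RT1 it was -8.58. Before thinning, the shares were 79.2%, 78.4%, 77.0% and 77.1%, with median depths of 7631, 6269, 9239 and 6605 UMIs a cell. Between 10.9% and 11.8% of the cells held 4 or 5 such UMIs, next to the chosen limit.

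In monocytes the share at equal depth was 7.89%, 9.01%, 6.60% and 9.38%, from 114, 544, 1272 and 320 cells deep enough. Thinning left out 436 of the 550 NT monocytes, so the NT share rested on 9 cells (95% Clopper-Pearson interval 3.67% to 14.5%). Their median depths were 1223, 1507, 2354 and 1267 UMIs before thinning. The same share in lymphocytes was 70.8%, 52.0%, 54.8% and 61.0%, from 96, 123, 281 and 123 cells deep enough to count, with 273 of 369 NT lymphocytes left out. Over all lymphocytes before thinning the shares were 39.02%, 40.7%, 47.2% and 43.0%, with NT the lowest and not the highest, so no order is read from them. Macrophages of NT reached 28.0% and those of RT 6.98%, 5.45% and 8.67%. Before thinning these shares were 45.0%, 23.4%, 32.7% and 19.0% in macrophages and 6.0%, 5.12%, 10.5% and 4.17% in monocytes.

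**Figure D3:**
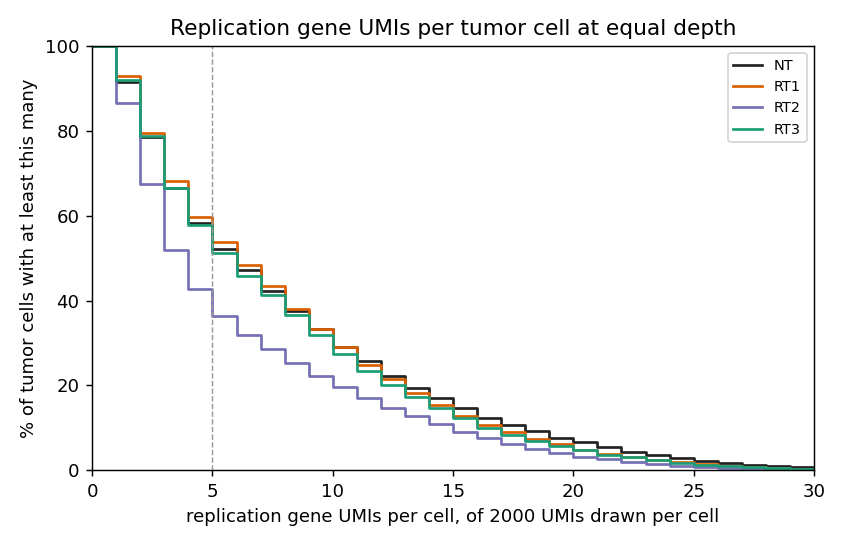
Share of tumor cells (vertical axis, %) with at least a given number of replication gene UMIs (horizontal axis) among 2000 UMIs drawn from each cell, with 1 line for each library and a dashed line at 5 UMIs. RT2 fell to 36.3% at 5 UMIs, while NT, RT1 and RT3 lay between 51.1% and 53.7%.

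G2M genes were counted in the same thinned cells to group tumor cells by that count. Those with at least 3 G2M UMIs are called cycling here, and those with none were not shown to be resting. Cells with at least 3 G2M UMIs made up 59.7% in NT, 59.7% in RT1, 42.7% in RT2 and 59.5% in RT3. The mean difference of RT from NT was -5.69 percentage points, -0.04 without RT2 and -8.56 without RT1. Tumor cells that passed both limits made up 47.1%, 48.4%, 32.4% and 46.5%. Replication gene UMIs at or above 5 with no G2M UMI at all were seen in 1.06%, 1.41%, 1.24% and 0.931% of tumor cells. The 2 programs were thus mostly read in the same cells.

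Within the cycling cells, the summed level of the 39 genes was 5256 CPM in NT and 5125, 4982 and 4961 CPM in RT. In cells without a G2M UMI it was 1046 CPM in NT and 1111, 883 and 958 CPM in RT. Cells with 1 to 2 G2M UMIs were between, at 1439 CPM in NT and 1458, 1125 and 1323 CPM in RT. RT2 was the lowest library in cells with 0 and with 1 to 2 G2M UMIs, and RT3 in the cycling cells. In cycling cells 22 members were lower and 8 higher in every RT library, where 36.1% of all genes were lower. The share of all genes that were higher was not counted in these cells, so the 8 are not compared with it. The median was -0.20, or -0.10 without RT2. In cells without a G2M UMI, 14 of 33 passing members were lower, where 34.5% of all genes were lower. Their median was -0.14, or -0.06 without RT2 and -0.24 without RT1. It was -0.0395 with the 8% top-scoring likely doublets removed. Lig1 (1.198), Rfc3 (0.98), Gins2 (0.48), Mcm5 (0.48), Rpa2 (0.45) and Mcm6 (0.45) stayed above NT in every RT library within cycling cells, and Pold1 (-0.79), Pclaf (-0.45), Uhrf1 (-0.39) and Cdc6 (-0.37) below it.

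The members differed widely in how far they followed the cycle. Between tumor cells with 3 or more and with no G2M UMIs, Pclaf had a mean log2 ratio of 5.67 ± 0.47 (SD, n = 4 libraries), or 50.7-fold. Rrm2 followed at 4.75 ± 0.19, Cdc6 at 4.30 ± 0.33 and Asf1b at 3.79 ± 0.25 (SD, n = 4 libraries each). At the other end stood Pold3 at 1.19 ± 0.21, Dut at 1.22 ± 0.07, Pold1 at 1.41 ± 0.18 and Orc6 at 1.43 ± 0.17 (SD, n = 4 libraries each). The 2 ends were apart by far more than the spread between libraries. The cells were grouped by other genes of the same cycle, so a rise in each member follows in part from the grouping, and only the order of the sizes is described. Over clusters by library (72 points that share libraries), genes whose log2 level was among the most like the members' mean were Smc4 (Pearson r = 0.95), Racgap1 (0.94), Birc5 (0.94), Dbf4 (0.94), Top2a (0.94), Atad2 (0.94) and Cdk1 (0.93).

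**Figure D4:**
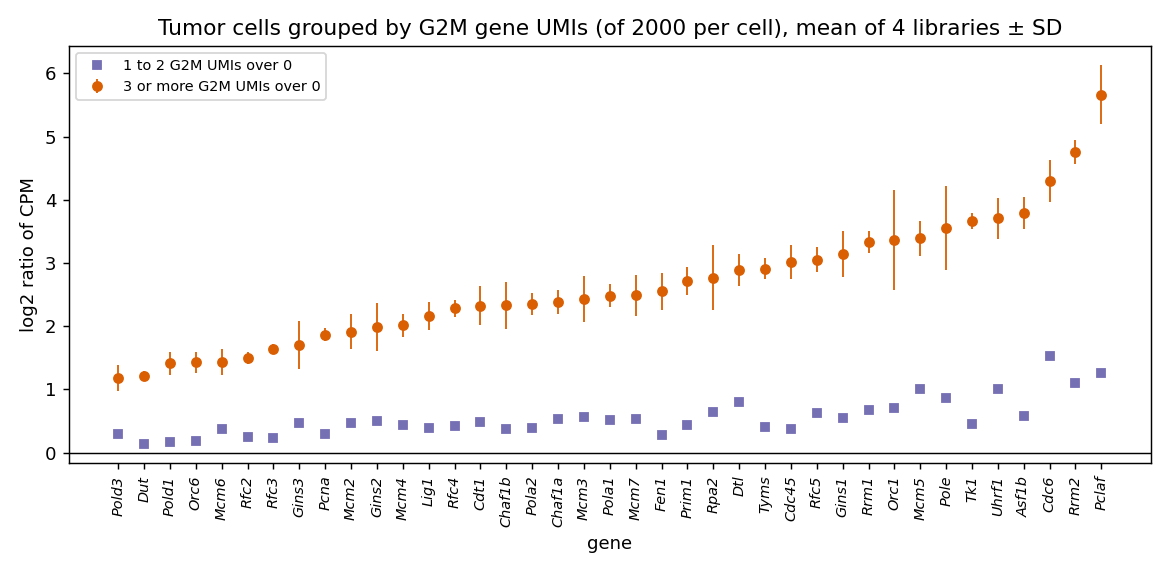
Log2 ratio of CPM (vertical axis) for each gene (horizontal axis) between tumor cells with 3 or more, or 1 to 2, G2M UMIs and those with 0, as the mean of 4 libraries, with bars of 1 SD for the first. Pclaf at 5.67 and Pold3 at 1.19 mark the ends of the range.

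The 7 tumor cell clusters held these genes unevenly. Clusters 1 and 6 were at 5198 to 5427 CPM and 5645 to 6150 CPM over the 4 libraries, and clusters 0, 3 and 12 were at most at 1775 CPM. The first pair made up 26.6% and 16.7% of tumor cells in NT, 28.8% and 16.4% in RT1, 22.2% and 9.997% in RT2, and 23.8% and 19.7% in RT3. Of the low clusters, cluster 0 made up 18.7% in NT against 27.7%, 34.5% and 21.8% of the tumor cells of the RT libraries in order, while cluster 3 went the other way, at 23.05% against 17.2%, 17.4% and 21.9%. Cluster 7, at 2867 to 3619 CPM, was also a smaller part in RT, at 11.2% in NT and 3.45%, 6.48% and 7.23%. With the same share of each cluster in every library, the median ratio of the members was -0.19.

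Macrophages showed the widest gap of the 4 classes examined. Of 33 members that passed the filter there, 31 were lower than NT in every RT library, 30 of them by at least 0.25 on the log2 scale, and 1 was higher. Cdc45, among the lower members, passed only with its NT value counted, at 17.2 CPM in NT and 3.79, 3.27 and 5.21 CPM in RT. Among all 8525 genes, 35.4% were lower, 31.8% higher and 18.3% lower by that amount. The median of the members was -1.31 (-1.25, -1.52 and -1.18 in RT1, RT2 and RT3), against -0.03 for all genes. The other 6 members did not pass. Of 46 passing G2M genes, 42 were lower in every RT library with a median of -1.86, and of 51 other replication genes 39 were lower with a median of -0.46.

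Tk1, which salvages thymidine, was at 77.4 CPM in NT macrophages and 8.57, 10.3 and 11.6 CPM in RT, a mean log2 ratio of -2.93 ± 0.22 (SD, n = 3). Pclaf was at 131, 17.7, 22.8 and 18.5 CPM, or -2.74 ± 0.19 (SD, n = 3). In both genes the RT libraries lay close together and far from NT. At the other end, Rfc2 was at 31.5, 25.3, 47.8 and 24.1 CPM (-0.04) and Rfc3 at 14.4, 17.3, 22.1 and 15.9 CPM (0.33). Rfc3 was thus the single member above NT in every RT library of this class.

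**Figure D5:**
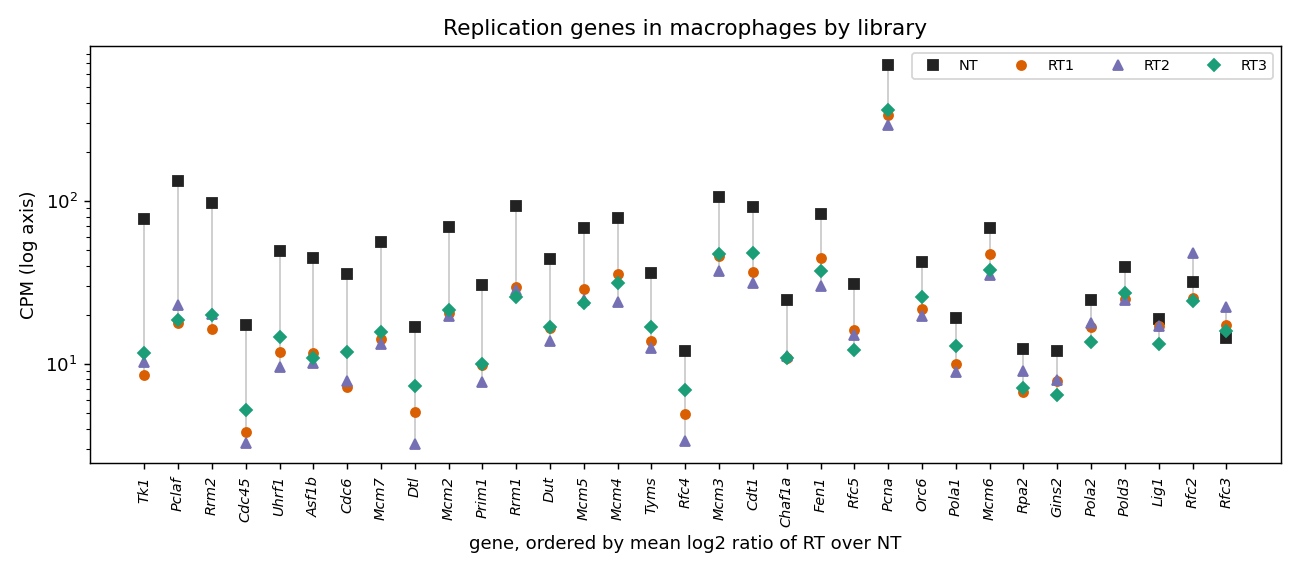
CPM on a log axis (vertical) of the 33 passing replication genes (horizontal) in macrophages, with 1 symbol for each library. NT sat above the 3 RT libraries in 31 genes, by most in Tk1 at 77.4 against 8.57 to 11.6 CPM, and Rfc2 and Rfc3 are the exceptions at the right.

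The NT macrophages were few, 571 cells against 2003, 2024 and 1235, and differed in other ways. The 10 macrophage markers summed to 12308 CPM in NT and to 21893, 21838 and 20633 CPM in RT, with 9 of them higher in every RT library. Their most abundant marker, Selenop, was at 2382 CPM in NT and 5826, 4086 and 5853 CPM in RT. Tumor markers in the same cells summed to 829, 991, 810.4 and 983 CPM, and Rhox5 was lower in NT than in any RT library. Rhox5 was also lowest in NT in the tumor cells. As a share of its tumor cell level in the same library, it was 2.67% in NT and 3.22%, 2.63% and 4.11% in RT. For the summed tumor markers that share was 7.00% in NT and 8.96%, 5.90% and 8.06% in RT, so RT2 was below NT in both. The 7 neutrophil markers, led by Csf3r, summed to 21.9 CPM in NT macrophages and 88.2, 145 and 87.6 CPM in RT, and all 7 were higher in every RT library. The 9 dendritic cell markers, led by Fscn1, summed to 52.7, 20.6, 18.6 and 36.2 CPM, with 5 lower in every RT library. The 7 fibroblast markers, led by Col3a1, summed to 23.9, 64.9, 47.05 and 86.2 CPM, with 5 higher in every RT library. No marker of the 3 lists was at 0 in all libraries, and the part of these UMIs in the members' ratios was not tested. In the larger of the 2 macrophage clusters, 84.8% of the class in NT and 88.7% to 94.8% in RT, the members summed to 2409 CPM in NT and 960, 884 and 996 CPM in RT. With unnamed clusters joined to their nearest class, the median over macrophages was -0.80, and with replication and cell cycle genes left in the clustering it was -0.87, each over 1.5 times smaller. At 2000 UMIs a cell, 24.5% of 493 NT macrophages held at least 3 G2M UMIs, against 10.9% of 1648, 7.11% of 1928 and 10.9% of 900 in RT. Those cells held a mean of 8.64 member UMIs in NT and 3.66, 4.02 and 3.87 in RT, so both the share and the level per such cell were higher in NT.

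Monocytes did not show this gap. Of 25 passing members, 7 were lower and 12 higher in every RT library, 2 of them lower by at least 0.25. Among all 7334 genes, 23.3% were lower, 43.4% higher and 10.9% lower by that amount. The median was 0.18, against 0.13 for all genes, and NT monocytes were 550 cells with 821865 UMIs. The sign of this median turned under 2 settings, to -0.03 with the cycle genes left in the clustering and to -0.02 without a low-count filter. In these cells the neutrophil markers, led by S100a8, summed to 48.7 CPM in NT and 162, 239 and 136 CPM in RT, with all 7 higher in every RT library. The dendritic cell markers, led by Fscn1, summed to 93.7, 30.8, 32.9 and 37.8 CPM, with 6 of 9 lower in every RT library. The fibroblast markers, led by Col3a1, summed to 46.2, 129, 85.4 and 169 CPM, with 6 of 7 higher in every RT library. The 7 tumor markers, led by Myc, summed to 715 CPM in NT and 882, 782 and 1152 CPM in RT. The part of all these markers in the members' ratios was not tested. Pcna was at 355 CPM in NT and 269.7, 243 and 276 CPM in RT, or -0.44 ± 0.10 (SD, n = 3). Tyms was at 13.4, 12.8, 9.86 and 9.45 CPM, the second lowest. Mcm6, from 12 UMIs in NT, was at 14.6, 48.2, 33.7 and 30.999 CPM, a pooled ratio of 2.55 (95% exact counting interval 1.44 to 4.97). Rfc3 rested on 3 UMIs in NT, with a pooled ratio of 4.19 (1.41 to 20.5). Lig1 also rested on 3 UMIs in NT, with a pooled ratio of 4.29 (1.44 to 21.0), and was mixed, with RT3 at 3.02 CPM against 3.65 in NT.

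In lymphocytes more members were lower than higher, in a class whose make-up differed between libraries. At a finer clustering resolution of 1.2, cells led by Trbc2, Cd8a and Cd3e numbered 278 in NT and 157, 351 and 183 in RT, and cells led by Gzma, Gzmc and Gzmd 92 in NT and 197, 240 and 145 in RT. The first kind outnumbered the second in NT, RT2 and RT3 and was the smaller in RT1, and the part of this difference in the members' ratios was not tested. Of 32 passing members, 16 were lower and 7 higher in every RT library, 6 of them lower by at least 0.25. Among all 5371 genes, 38.0% were lower, 23.4% higher and 16.2% lower by that amount, so the share of lower members was not far from that of all genes. The median was -0.23 (-0.22, -0.36 and -0.02), against -0.10 for all genes. With the 8% top-scoring likely doublets removed it was -0.0611, and 10 members were lower in every RT library. For that setting the share over all genes is not given. The 10 macrophage markers summed to 155 CPM in NT lymphocytes and 787, 604 and 329 CPM in RT, led by Selenop, with 7 of them higher in every RT library and none at 0. The 9 dendritic cell markers summed to 320.3, 154, 103 and 178 CPM, led by Ccr7, with 4 lower in every RT library, while Xcr1, Flt3 and Cd209a were at 0. The 7 neutrophil markers, led by S100a9, summed to 6.30 CPM in NT and 144, 66.5 and 69.9 CPM in RT, with 5 higher in every RT library. The 7 fibroblast markers, led by Col3a1, summed to 116, 282, 217 and 192 CPM, with 6 higher in every RT library. The 7 tumor markers, led by Myc, summed to 2155 CPM in NT and 2487, 1912 and 2372 CPM in RT. The part of these marker UMIs in the members' ratios was not tested. Cdc6 was at 95.8 CPM in NT and 44.7, 30.1 and 60.4 CPM in RT (-1.14 ± 0.50, SD, n = 3). Mcm2, a part of the helicase ring, was at 184, 112, 109 and 98.3 CPM (-0.79 ± 0.10, SD, n = 3). For both, no RT library reached NT. Lig1 was at 47.9, 97.5, 131 and 49.7 CPM (0.84) and Rfc3 at 35.3, 55.5, 65.5 and 60.4 CPM (0.76), higher in every RT library.

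A few members, chosen after their values were seen, are set side by side over the 4 classes, each of which shares the same NT library. Rfc3 had mean log2 ratios of 0.92 in tumor cells, 0.33 in macrophages, 1.74 in monocytes (from 3 NT UMIs) and 0.76 in lymphocytes. Lig1 was at 1.06, -0.27, 1.23 (from 3 NT UMIs, and mixed) and 0.84 in the same order, and in macrophages it was, after Rfc2, the passing member whose mean lay nearest to NT. Rfc2 was highest in RT2 in each class, with 68.2 CPM in tumor cells, 47.8 in macrophages, 49.5 in monocytes and 117 in lymphocytes. Pcna was lower in every RT library in all 4 classes, at -0.26, -1.06, -0.44 and -0.34. Mcm5 was higher in tumor cells (0.36), monocytes (0.98) and lymphocytes (0.24) and lower in macrophages (-1.42). Whether such gene by library differences come from the tumors or from the preparation or counting of the libraries was not tested.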

How the data were processed

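Single-cell suspensions of whole tumors were prepared with a 3′ microwell kit (SeekOne MM), and the authors deposited 4 matrices of UMI counts per gene and cell barcode, not normalized. The submitters' processing notes name STAR 2.5.1b, featureCounts, Subread 1.6.4, Cell Ranger and the builds GRCm39 and mm39, without their roles, while the study's methods name SeekOne Tools. Genes were matched by symbol over the 18605 genes in all tables, and no coordinate of the files was used. The promoter sequences are of another build, GRCm38.p6, and were matched by symbol only.

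Barcodes under 200 genes or over 20% mitochondrial UMIs were dropped, which left 55058 of 55805. Variable genes without the cell cycle lists, mitochondrial or ribosomal protein genes gave 30 principal components, which were corrected for library by a rewritten Harmony step (theta 2). Leiden clusters (resolution 0.8, 20 neighbors, leidenalg 0.10.2, scanpy 1.11.5, Python 3.11.15) were named from marker lists, and 4 of 19 stayed unnamed. No doublets were removed in the values reported. UMIs were summed over each class and library. Log2 ratios used a prior of 0.5 UMIs, and a gene passed at a mean of at least 5 CPM and 100 UMIs over the 4 libraries. The ratio was checked on simulated data.

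NT had 1 library, so no test was made. A gene counts as lower or higher when it was so in all 3 RT libraries, and an SD over RT libraries (n = 3) does not cover the spread of NT. UMI intervals cover counting error only. Each RT library is 1 tumor, so the spread between them holds both animal and preparation.

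The members and gene lists were chosen with earlier results of these data known. Named were all members by role, the 8 most abundant, 6 lowest and 4 highest in tumor cells, 2 lowest and 2 highest in other classes, 3 lowest and 3 highest of each further list with Cdkn1a, E2f1, Ccne1, Ccne2, Mki67 and Top2a, the 4 ends of the G2M order and the 8 most similar genes, of which 1 is not reported here. Alternatives covered cell filters, doublets, scaling, clustering, low-count filters, thinning depth and left-out libraries.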

Additional observations from a re-analysis of the deposited data

Results flagged for a closer look

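Flagged were members whose 3 RT ratios lay on opposite sides of NT in 2 cell classes by at least 0.25 log2 each, and medians on opposite sides. None of these differences was tested, and all classes share the NT library. Between tumor cells and macrophages, the mean log2 ratio of Mcm5 differed by 1.78 (0.36 against -1.42). Between tumor cells and monocytes, Mcm7 differed by -0.86 (-0.44 against 0.42) and the median member by -0.45 (-0.26 against 0.18). All passing genes had medians of -0.06 in tumor cells, -0.03 in macrophages, 0.13 in monocytes and -0.10 in lymphocytes. The differences between medians of members are not corrected for these. They also cover different genes, with 39, 33, 25 and 32 passing members in the same order.

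Macrophages and monocytes differed in Mcm5 by -2.39, in Mcm6 by -2.07, in Mcm7 by -2.37, in Rfc5 by -1.75 and in Rrm2 by -3.055, with a median difference of -1.49. Macrophages and lymphocytes differed in Rfc4 by -1.86 and in Rpa2 by -1.10. Monocytes and lymphocytes differed in Mcm7 by 0.89 and in the median by 0.41. In NT monocytes, Mcm5 and Mcm6 rested on 12 UMIs each, Rrm2 on 13, Rfc5 on 9 and Mcm7 on 8.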

How the results depend on the processing

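In tumor cells, the median ratio stayed between -0.34 and -0.12 and the count of lower members between 18 and 26 over 17 alternatives. Counts under the alternatives, here and below, are given without the share over all genes and are not compared with it. The count lower by 0.25 was 5 with fewer than 3 myeloid marker UMIs and 5 with equal cluster shares, both chosen after seeing the data, as was the joining of unnamed clusters. Over 663 combinations for single members, none that was lower or higher in every RT library turned, 14 values moved beyond their SD, and the mixed members Dut, Pola2, Orc6, Tyms and Mcm4 changed sign in some. In cycling cells the median was -0.16 with ratios centred on all genes, -0.12 at a mean of 20 CPM, and -0.19 to -0.10 leaving out 1 RT library, lowest in size without RT2. The share of cells with 5 or more member UMIs gave -8.58 to 0.16 points leaving out 1 RT library, turning without RT2.

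The macrophage median was -1.52 with no integration, -0.87 with cycle genes left in the clustering and -0.80 with unnamed clusters joined. Its count was 17 at a mean of 20 CPM, where fewer genes pass. The monocyte median was 0.0441 with centred ratios, 0.35 with cells weighted equally, 0.0202 at resolution 0.4, 0.0519 with no integration, -0.0312 with cycle genes left in and -0.0218 without a low-count filter. Its count was 3 at 10% mitochondrial UMIs, 4 with cells weighted equally, 4 at 20 CPM and 13 without a filter. The lymphocyte median was -0.0611 and its count 10 without the 8% highest doublet scores, and the count was 10 with centred ratios. The causes were not tested. Few UMIs in NT monocytes and lymphocytes limit those ratios. No paired analysis was possible because NT is 1 library and the result comes from no test.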
